A study of Mus musculus with 3 samples.

Results

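The subject is 584 small insertions and deletions (indels) that lie in the 5′ untranslated regions (5′ UTRs) or just upstream of genes in MB49, a mouse bladder cancer cell line. They were found among 22791 autosomal indels as every entry on chromosomes 1 to 19 whose deposited place relative to genes was 5′ UTR, upstream, or upstream of one gene and downstream of another. Of the 584, 122 lay in a 5′ UTR, 433 were upstream and 29 were upstream of one gene and downstream of another. The last 2 classes, 462 indels, are called upstream below. Exomes of genomic DNA were sequenced from 3 MB49 cell lines with identical culture conditions in the labels: the parental line and its derivatives labelled Y positive and Y negative. The study set these lines side by side to look at loss of the Y chromosome. How the derived lines were made, and whether each is 1 clone, is not given in the labels. Each line gave 1 library, so no difference below has a replicate check, and a test on reads compares 2 libraries and not 2 conditions. Groups follow the genotype labels. The sample descriptions are MBN for Y positive and MBP for Y negative, but chromosome Y entries numbered 9 in the Y positive list, 4 in the parental list and 0 in the Y negative list.

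The 5′ UTR is the stretch of a messenger RNA that the ribosome scans before it reaches the start codon. Its length, its structure and the short reading frames it can hold set how well the message is translated, and the bases closest to the start codon help to mark it. The sequence upstream of the transcript start holds the promoter, where the transcription machinery and its factors bind. An indel in either place changes letters and spacing but leaves the reading frame of the protein as it was. The deposited annotation places an indel upstream when it lies within a set window before a transcript, and the width of that window is not given in the sources used here.

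The parental list held 338 of these indels among 11709 entries, the Y positive list 308 of 10334 and the Y negative list 309 of 12465. Their median depth, the reads counted at an entry, was 11, 14 and 12, and single entries ranged from 1 to 610 reads. Over all entries the median depth was 9, 13 and 7, and depth summed to between 317111 and 329187 reads. Exome capture is aimed at exons, and upstream sequence lies outside them. Upstream entries had a median depth of 10, 14 and 10.5 in the same order of lists, and 5′ UTR entries 16, 18 and 15. The part of capture in these depths was not tested. Depth is given beside the values of most named indels. An indel that a list does not hold has no read counts there, so its absence is not a measured reference genotype.

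The indels that carry most of what follows are printed here with their letters. Each is given on the plus strand of the genome from 5′ to 3′, with the base before it in lower case and the deleted or inserted bases in capitals. Positions are in the coordinates of the deposited files (mm9, inferred as described with the processing), and an insertion is placed by the base before it. The first set shows indels of at least 3 bases that were homozygous in all 3 libraries at a depth of at least 20 reads in each.
5′ UTR deletion at chr8:12573062-12573065: gACCT
upstream deletion at chr2:90137059-90137061: tAAA
upstream deletion at chr2:90958218-90958228: tTAGCAGGTGGC
upstream insertion at chr3:93087586: cCCAGCA
The next set shows the 5′ UTR indels nearest to a start codon that all 3 lists held at a depth of at least 20 reads.
5′ UTR insertion at chr2:85172060: tA
5′ UTR insertion at chr14:96281019: gA
5′ UTR deletion at chr8:13026047-13026048: cCA
5′ UTR deletion at chr7:48539828: gC
A further set shows neighbouring indels that share one upstream stretch.
upstream deletion at chr17:3084335-3084336: gGT
upstream insertion at chr17:3084338: gAA
upstream deletion at chr17:3084365-3084387: tGCGGGCAGAAGACTGCAGCCGCC
upstream deletion at chr17:23616700-23616701: tCC
upstream insertion at chr17:23616701: cGATT
upstream insertion at chr17:95233788: aCCCGC
upstream insertion at chr17:95233793: tTGTCTGACTGGCAGTTCC
The last set shows the indel that differed between libraries and indels that a single list held.
upstream insertion at chr13:40383412: gA
upstream insertion at chr8:109452365, parental: cTGAAAG
upstream insertion at chr8:109452369, parental: cTCGA
5′ UTR insertion at chr2:174893221, Y positive: tGCG
5′ UTR deletion at chr2:174893225-174893227, Y positive: gACA
5′ UTR deletion at chr4:60965037-60965052, parental: gTTTTTTTTTTATTGTT

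Most of the indels were small. Deletions made up 424 of the 584 and insertions 160. One base was lost or gained in 278, 2 bases in 143, 3 in 46, 4 in 48 and 5 or more in 69. Among the single-base changes, A was the base in 91, T in 92, C in 48 and G in 47. The longest deletion removed 57 bases and the longest insertion added 51, both upstream. In 5′ UTRs the longest deletion removed 16 bases and the longest insertion added 48.

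The base composition of the indels differed by place. Indels made of G and C only were 33.6% of the 5′ UTR indels (95% interval 25.3 to 42.7), 22.9% of the upstream indels (19.2 to 27.1) and 17.1% of all autosomal indels (16.6 to 17.6). Intervals are exact (Clopper-Pearson) and cover error in counting indels only. They treat each indel as separate, although 153 of the 584 lay within 60 bases of another. The reads carry no molecular identifiers. Single-base G or C changes were 22.1% of the 5′ UTR indels (15.1 to 30.5), beside 14.7% upstream (11.6 to 18.3) and 12.5% overall. Single-base A or T changes were 31.3% of the 584 (27.6 to 35.3), beside 26.2% overall (25.6 to 26.8). Depth moved with these shares. Among the 187 indels read at least 20 times in at least 1 library, G and C only made up 15.5%, beside 16.5% of all autosomal indels at that depth, and 18.2% of the 44 in 5′ UTRs (interval 8.19 to 32.7). At that depth a run of A or a run of T alone was lost or gained in 63.6%, beside 53.8% overall. The 5′ UTR share of G and C only was thus set apart over all entries, and at this depth it was not distinguishable from that of all autosomal indels.

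In coding sequence, a size that is a multiple of 3 keeps the reading frame, and 79 of 254 coding indels had such a size (31.1%, interval 25.5 to 37.2). In 5′ UTRs 19 of 122 did (15.6%, 9.64 to 23.2), and upstream 11.7% did (8.90 to 15.0), beside 13.3% of all autosomal indels. The interval of neither place reached that of coding sequence. At a depth of at least 20 the counts were 3 of 44 in 5′ UTRs (interval 1.43 to 18.7%) and 15 of 187 in both places together (8.02%), beside 46 of 195 coding indels (23.6%, 17.8 to 30.2). The 5′ UTR interval overlapped the coding one at that depth.

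**Figure D1:**
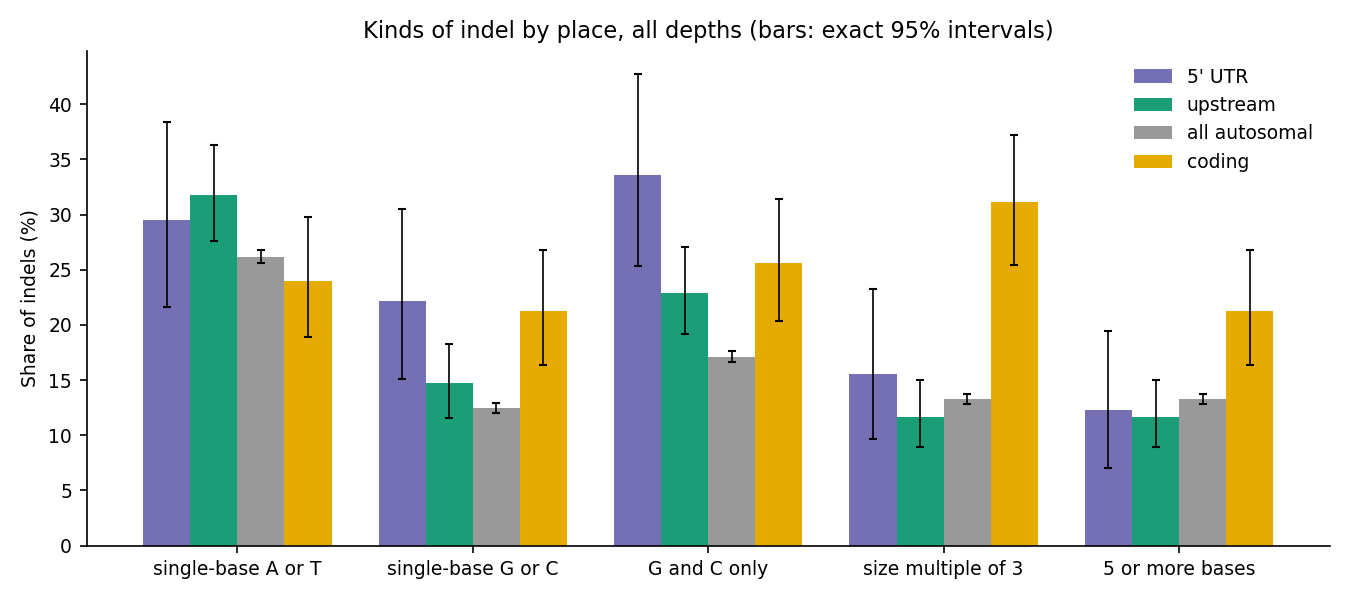
Share of indels (percent, vertical axis) of 5 kinds among the 5′ UTR, upstream, all autosomal and coding indels, with bars for exact 95% intervals. Sizes that are multiples of 3 stand at 31.1% in coding sequence and at 15.6% in 5′ UTRs, and G and C only is highest in 5′ UTRs at 33.6%.

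For 119 of the 122 5′ UTR indels the annotation gave the distance to the start codon in bases. Where it gave distances for several transcripts, the smallest was taken. That distance may belong to a transcript other than the first, which is the one named here. The nearest lay 4 bases away and the median was 104, with quartiles of 48.5 and 197. Within 100 bases lay 58, within 20 lay 11, and 14 lay beyond 1000 bases, up to 112026. Whether these long distances count introns is not given in the sources used here. None of the 462 upstream entries carried a distance, so upstream indels could not be placed relative to a transcript start. The 38 5′ UTR indels in all 3 lists had a median distance of 91 bases, and the 63 held by a single list had a median of 130. The 42 with a distance and a depth of at least 20 in some library had a median of 69.5. Sizes that are multiples of 3 numbered 8 of 58 within 100 bases of the start codon (13.8%, interval 6.15 to 25.4) and 11 of 61 beyond, whose share lay inside that interval.

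**Figure D2:**
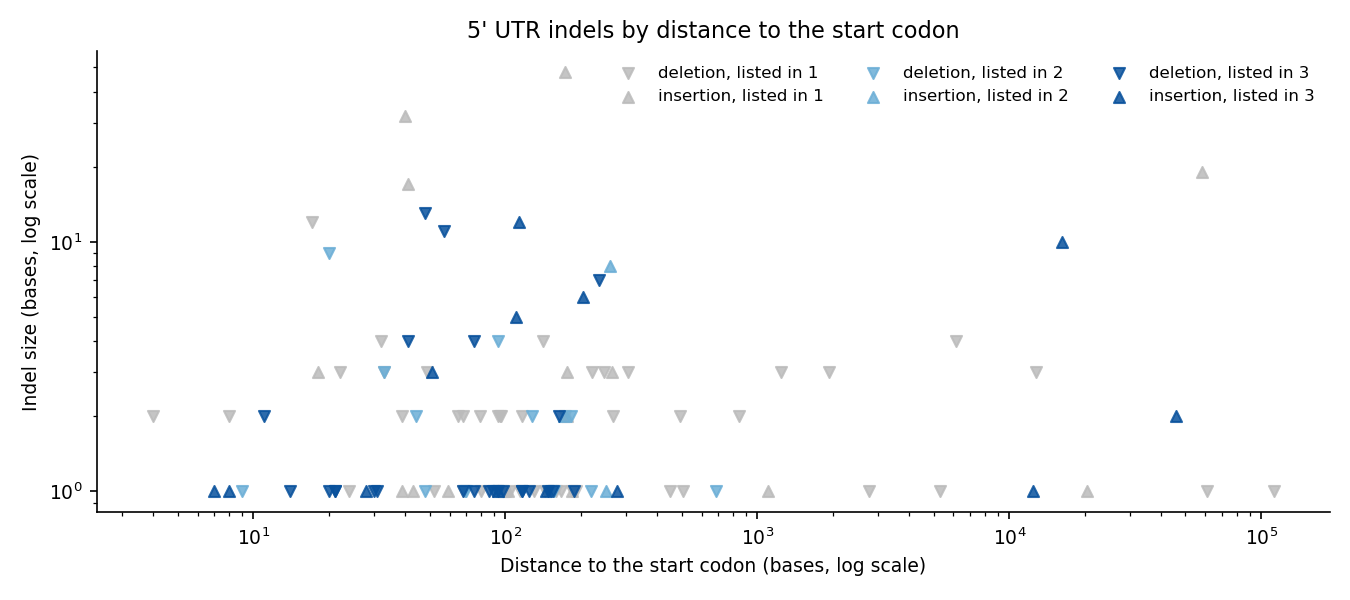
Each point is a 5′ UTR indel with a deposited distance, plotted by distance to the start codon (bases, log scale) and by size (bases, log scale), with pointing-down marks for deletions, pointing-up marks for insertions and darker blue for more libraries. Indels in all 3 lists stand at distances from 7 to 45868 bases, most of them of 1 base.

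The single-base A insertion at chr2:85172060, first transcript ENSMUST00000099929, lay 7 bases before the start codon. The parental library had it in 30 of 66 reads, Y positive in 31 of 64 and Y negative in 19 of 68. The Y negative share was the lowest, but the difference did not pass the test described below. The A insertion at chr14:96281019 (ENSMUST00000045892) lay 8 bases away, with 22 of 36 reads in parental, 9 of 24 for Y positive and 14 of 30 for Y negative. The C deletion at chr7:48539828 (ENSMUST00000097044), 14 bases away, stood at 49 of 64, 52 of 69 and 68 of 97 reads, in that order of libraries. All 3 were deposited as heterozygous in every library.

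The 2-base CA deletion at chr8:13026047-13026048 (ENSMUST00000033820) differed from these in genotype. It lay 11 bases from the start codon, and every read carried it, 22 in parental, 30 for Y positive and 42 for Y negative. At 21 bases lay an A deletion at chr16:30065656 (ENSMUST00000023171), with 14 of 25, 10 of 21 and 15 of 24 reads. A T deletion at chr19:13842813 (ENSMUST00000061669) had the same distance of 21 bases, with 25 of 62, 24 of 59 and 15 of 57 reads. The nearest entry of all was a 2-base deletion at chr15:9459501, 4 bases from the start codon, which 1 list alone held at a depth of 17.

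Sharing among the lists came next. All 3 lists held 146 of the 584 indels (25%, interval 21.5 to 28.7), beside 18.2% of all autosomal indels (17.7 to 18.7). Matched exactly as listed, a pair of lists held 79, and a single list held 359. Of those 359, 140 were in the parental list, 108 in Y positive and 111 in Y negative. In 5′ UTRs 38 of 122 were in all 3 lists (31.1%) and upstream 23.4%.

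Depth went with sharing. The highest depth of an indel was taken over the lists that held it. An indel in more lists had more values to take it from, so part of the rise is built in. Of the 241 indels whose highest depth was 1 to 4 reads, 4 were in all 3 lists (1.66%). The share was 16.7% at 5 to 9 reads, 33.3% at 10 to 19, 50.4% at 20 to 49 and 63.5% at 50 or more. All autosomal indels gave 0.703%, 15.9%, 27.3%, 40.4% and 60.2% in the same bins, and the intervals overlapped in every bin. The nearest to parting was the bin of 20 to 49 reads, where the interval started at 40.9 and that of all autosomal indels ended at 42.1. Over all indels read at least 20 times in some library, 104 of 187 were in all 3 lists (55.6%, interval 48.2 to 62.9), beside 48.6% overall (47.3 to 49.9).

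**Figure D3:**
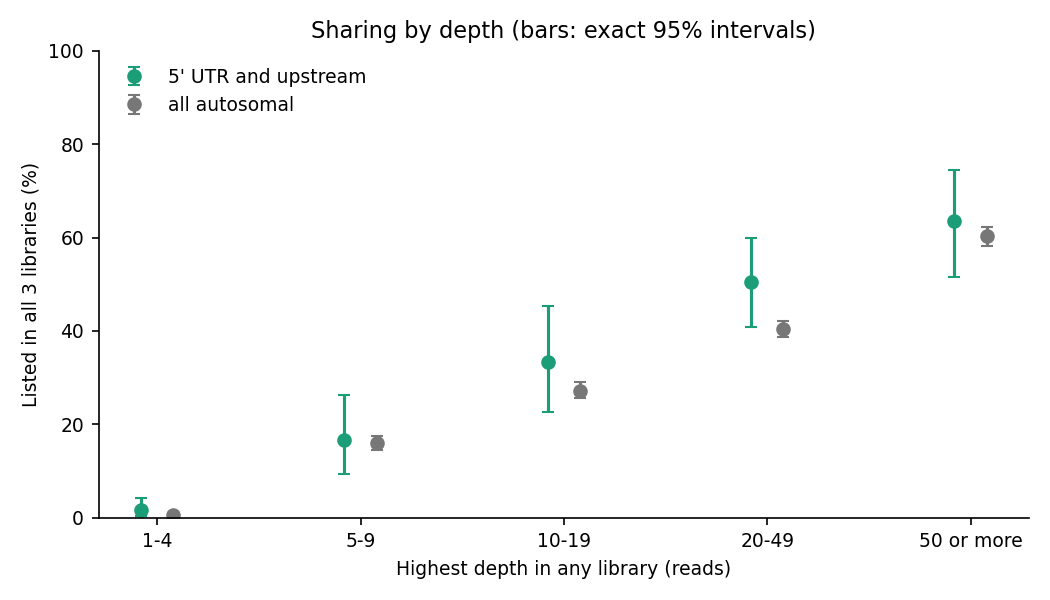
Share of indels listed in all 3 libraries (percent, vertical axis) by the highest depth in any library (reads, horizontal axis) for the 5′ UTR and upstream indels and for all autosomal indels, with bars for exact 95% intervals. The share climbs from 1.66% at 1 to 4 reads to 63.5% at 50 or more. The highest depth is taken over the lists that hold an indel, which builds in part of the climb.

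No pair of libraries stood out. The Jaccard index, the indels in both lists over those in either, was 0.390 for Y negative and Y positive, 0.366 for Y positive and parental and 0.359 for Y negative and parental. Over all autosomal indels it was 0.288, 0.309 and 0.268. The 584 indels took 2.48% of the Y negative entries, 2.98% of the Y positive entries and 2.89% of the parental entries. Fisher exact tests of these shares, two-sided and adjusted over 42 tests of 14 annotation classes in 3 pairs, gave adjusted p-values of 0.114 (Y negative and Y positive), 0.194 (Y negative and parental) and 1 (Y positive and parental). At a depth of at least 20 the shares were 3.04%, 3.10% and 3.11%, and the same exact test gave an adjusted p of 1 for each pair.

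Genotype also went with depth and sharing. The deposited genotype was homozygous in 175 of 338 parental entries (51.8%), 141 of 308 Y positive entries (45.8%) and 161 of 309 Y negative entries (52.1%). At a depth of at least 20 the counts were 34 of 127 (26.8%), 30 of 129 (23.3%) and 26 of 123 (21.1%), close to the 27.3%, 27.2% and 26.2% of all autosomal entries at that depth. With under 5 reads, a heterozygous site can show its alternative allele alone, and 33.7%, 24.7% and 33.3% of the entries had under 5 reads. Of the homozygous entries read at least 20 times, all 3 lists held 31 of the 34 parental ones, 29 of the 30 Y positive ones and 25 of the 26 Y negative ones, beside 95.7%, 96.3% and 96.0% of all autosomal homozygous entries at that depth. Of the heterozygous ones, 58 of 81 were (71.6%), 63 of 91 (69.2%) and 64 of 91 (70.3%), beside 57.8%, 56.6% and 55.9% of all autosomal heterozygous entries at that depth. Of the homozygous entries with under 5 reads, 9 of 104 (8.65%), 5 of 67 (7.46%) and 10 of 92 (10.9%) were in all 3 lists, beside 4.93%, 7.57% and 4.76% of all autosomal homozygous entries with so few reads.

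The 79 indels that all 3 lists held at a depth of at least 20 in each are the best measured. They comprise 20 in 5′ UTRs and 59 upstream. The genotype was homozygous in all 3 libraries for 19, heterozygous in all 3 for 50 and mixed for 10. For 15 of the 79, no library had a single read of the reference allele. Single-base A or T changes made up 26 of the 50 heterozygous and 4 of the 19 homozygous indels. In 5′ UTRs 7 were homozygous and 12 heterozygous in all 3 libraries. Allele fraction, the reads with the indel over all reads of the entry, ranged over the 3 libraries by a median of 0.0646 per indel and by at most 0.406. The median allele fraction of the 50 heterozygous indels was 0.455 in the parental library, 0.449 for Y positive and 0.469 for Y negative.

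The 4-base ACCT deletion at chr8:12573062-12573065 had the highest median depth of the homozygous indels. It lay in the 5′ UTR of ENSMUST00000010579, 41 bases before the start codon. Every read carried it, 207 in parental, 173 for Y positive and 188 for Y negative. No library held a read of the reference allele there. A single-base G deletion at chr3:78721060, upstream of ENSMUST00000094175, was as uniform, with 166 of 166, 180 of 180 and 168 of 168 reads.

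The 3-base AAA deletion at chr2:90137059-90137061, upstream of ENSMUST00000117141, stood in all 68, 91 and 78 reads. The 11-base deletion at chr2:90958218-90958228, upstream of ENSMUST00000028718, stood in all 36, 48 and 34 reads. With the base before it, its letters occur in 2 of the 32851 promoter windows of RefSeq (GRCm38.p6), which run from upstream of a gene start to just past it. One of them lies on chromosome 2, that of Mybpc3, which encodes a myosin-binding protein of heart muscle. A match of 12 letters in that many windows does not place the deletion. The 6-base CCAGCA insertion at chr3:93087586, upstream of ENSMUST00000107297, was carried by 101 of 106 parental reads and by 75 of 75 and 95 of 95 reads in the derived lines. Each of these 4 indels of 3 or more bases was thus present in the parental line and in both derived lines at or near every read.

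The other 5′ UTR indels that were homozygous in all 3 libraries at a depth of at least 20 in each were shorter. They included the 2-base GG deletion at chr7:25164086-25164087 (first transcript ENSMUST00000167851), 163 bases from the start codon. It had 54 of 54, 60 of 60 and 62 of 62 reads. A C deletion at chr6:126593462 stood in all 42, 25 and 29 reads. A G deletion at chr1:146096235 stood in all 22, 26 and 33 reads. Below that depth, longer ones were listed. Among them was an 11-base deletion at chr2:76208119-76208129, homozygous in all 3 libraries with 16 of 16, 18 of 18 and 18 of 18 reads.

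**Figure D4:**
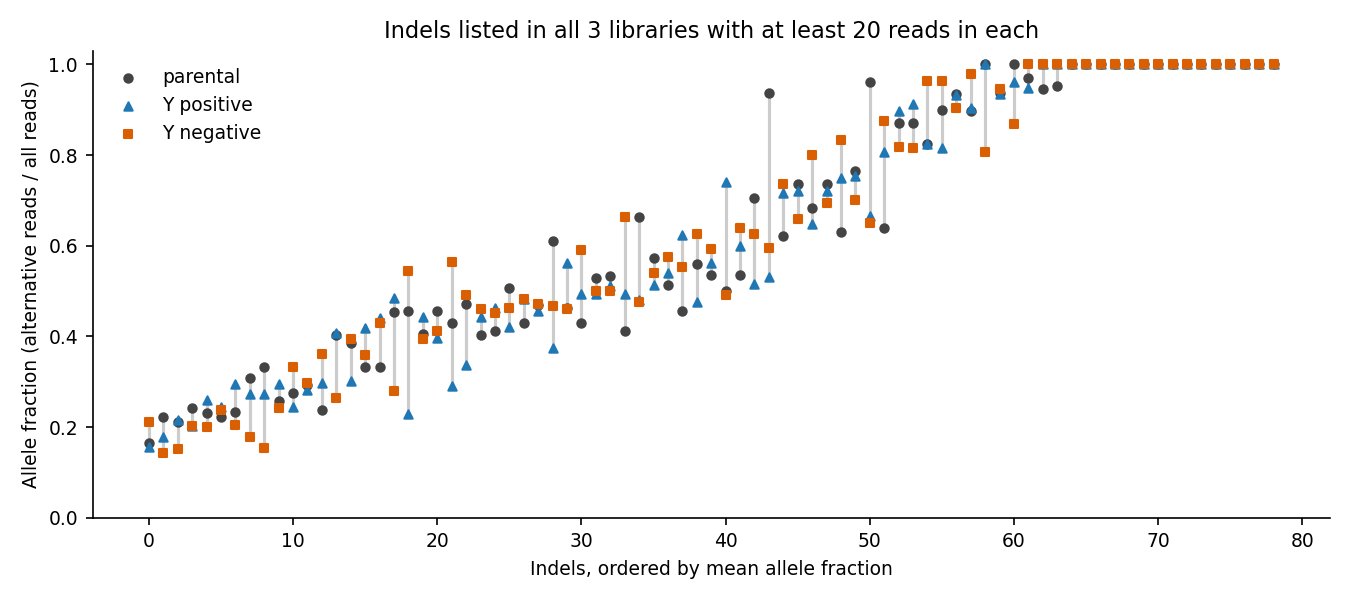
Allele fraction (vertical axis) of the 79 indels listed in all 3 libraries at a depth of at least 20 in each, ordered by their mean, with 1 mark per library and a grey line for the range. The 19 homozygous indels sit at or near 1 in all libraries, and the median range over libraries is 0.0646.

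Allele fraction was then compared between libraries to ask whether any of these indels changed its share of reads from one line to another. Fisher exact tests, two-sided, of reference and alternative reads were run at every indel with 1 alternative allele and at least 20 reads in both lists, with Benjamini-Hochberg adjustment over the whole table of each pair. Between Y negative and Y positive, 1 of 87 indels passed an adjusted p of 0.05, beside 0.794% of all 2645 indels tested. Between Y negative and parental, 1 of 84 passed, beside 0.302% of 2651. Between Y positive and parental, 0 of 84 passed by the Fisher exact test, beside 0.874% of 2745. An unadjusted Fisher exact p under 0.05 was reached by 8 of 87 (9.20%), 7 of 84 (8.33%) and 3 of 84 (3.57%) in that order of pairs, beside 6.20%, 5.47% and 6.23% of all indels tested. No other tool was run. With so few members tested, these counts do not stand apart from the background. The median size of the difference was 0.05, 0.0470 and 0.0353 in that order of pairs, beside 0.0333, 0.0313 and 0.0340 over all indels tested.

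The indel that passed was the same in both comparisons, which share the Y negative library. It is the A insertion at chr13:40383412, upstream of ENSMUST00000054635. It was carried by 67 of 67 parental reads, 64 of 64 Y positive reads and 67 of 83 Y negative reads. The Y negative library alone thus held reference reads, and it alone was deposited as heterozygous. Its allele fraction there was 0.807, a difference of -0.193 from either other library. The Fisher exact test gave an adjusted p of 0.0111 against Y positive and of 0.0225 against parental. Mapping quality of the entry was 60 in all 3 libraries. Whether the inserted A extends a run of A could not be read without the genome.

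Other differences, several of them larger than this one, did not pass. The 57-base deletion at chr3:93576757-93576813, upstream of ENSMUST00000090853, had 16 of 35 reads in parental, 8 of 35 for Y positive and 25 of 46 for Y negative, and its Fisher exact test between the derived lines gave an adjusted p of 0.3. It lies in a run of AG repeats that held 6 of the 584 indels. The G deletion at chr12:115046045 (ENSMUST00000103456) had 28 of 56, 54 of 73 and 30 of 61 reads, and Y positive was highest. By the Fisher exact test, its adjusted p was 0.240 between the derived lines and 0.316 between Y positive and parental. The 2-base TT insertion at chr4:147181227, annotated to the 5′ UTR of ENSMUST00000105734 at a distance of 45868 bases, had 33 of 80, 43 of 87 and 61 of 92 reads, with an adjusted p of 0.184 by the Fisher exact test between Y negative and parental. A T deletion at chr14:54336328 (ENSMUST00000103666) was highest in parental, at 57 of 86 reads, against 36 of 75 and 39 of 82 in the derived lines. Its adjusted p by the Fisher exact test was 0.618 for Y positive and 0.696 for Y negative against parental. The remaining differences among the 5 largest of a pair, at chr6:58385895, chr4:60690430, chr2:85172060, chr8:47019951, chr10:117031234, chr14:96281019 and chr14:46333487, had adjusted p-values by the same exact test from 0.565 to 1.

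Depth, unlike allele fraction, counts how much DNA of a place was read. At the 141 indels with 1 alternative allele in all 3 lists, the median log2 depth ratio, centred on all 3988 such autosomal indels, was 0.00 for Y negative over Y positive, 0.00 for Y positive over parental and 0.03 for Y negative over parental. The quartiles of the first ratio were -0.37 and 0.28, beside -0.34 and 0.24 over all such indels.

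The 10 indels of mixed genotype were mostly changes of T or A length. At chr12:110961585-110961586 a TT deletion was carried by 45 of 48 parental reads. In Y positive it was carried by 25 of 47 reads and in Y negative by 28 of 47, and there a single-base T deletion took another 15 of 47 and 16 of 47. At chr2:87031775 a TT insertion had 24 of 25 reads in parental, 30 of 45 for Y positive and 28 of 43 for Y negative. The Y positive entry also held a T insertion, with 14 of 45 reads, and the Y negative entry a TTT insertion, with 14 of 43. TT deletions at chr4:61335191 and chr7:5563056 each shared an entry with a T deletion in 1 library. At chr9:121619503 a TTT insertion had 52 of 63, 42 of 51 and 81 of 84 reads. Over all 146 indels in the 3 lists, 126 had the same genotype in each library, 59 of them homozygous and 67 heterozygous.

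Where an entry held a pair of alternative alleles, the files could place one of them further to the right, and 5 alleles were listed at different starts in different libraries. The clearest was a single A deletion upstream of ENSMUST00000076038. Parental listed it at chr17:57908921 with 108 of 145 reads beside an AA deletion with 32 of 145. Y negative listed it there with 107 of 147 reads beside the AA deletion with 30 of 147. Y positive listed the A deletion alone, at chr17:57908920, homozygous with 164 of 170 reads. Placing every allele leftmost raised the share in all 3 lists to 25.7%, 149 of 579. The difference in genotype between Y positive and the other libraries was not tested, because the read test used entries with 1 alternative allele.

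Many of the indels lay side by side. Joining indels no more than 60 bases apart left 491 places, of which 431 held 1 indel and 60 held several, 153 in all and up to 7 in one place. Neighbours can lie on the same reads, so they are not separate observations.

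Upstream of ENSMUST00000127960, a GT deletion at chr17:3084335-3084336 had 54 of 62 reads in parental, 52 of 58 for Y positive and 54 of 66 for Y negative. An AA insertion 2 bases on had 54 of 62, 52 of 57 and 53 of 65 reads. The 23-base deletion at chr17:3084365-3084387 had 58 of 62, 56 of 60 and 56 of 62. The 3 indels thus stood at nearly the same share in each library, and the mapping quality of their entries ran from 50.6 to 52.2. Upstream of ENSMUST00000171996, the CC deletion at chr17:23616700-23616701 had 28 of 38, 18 of 25 and 25 of 38 reads. The GATT insertion directly behind it had 28 of 38, 18 of 25 and 25 of 36 reads, a net gain of 2 bases.

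Upstream of ENSMUST00000090719, a 3-base TTC deletion at chr2:86447837-86447839 and a 7-base AGATTTT deletion at chr2:86447841-86447847 had the same counts, 18 of 18, 30 of 30 and 18 of 18 reads. Together they remove 10 bases. Upstream of ENSMUST00000097269, the 5-base CCCGC insertion at chr17:95233788 had 15 of 64, 13 of 44 and 11 of 54 reads. The 18-base insertion at chr17:95233793 had 12 of 57, 8 of 37 and 7 of 46, a low share in every library. Upstream of ENSMUST00000035113, a CC insertion at chr9:121619438 and a G insertion at chr9:121619489 were homozygous in all 3 libraries, the G insertion with 57 of 57, 41 of 41 and 67 of 67 reads.

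Upstream of ENSMUST00000065120, 7 indels lay between chr10:117031199 and chr10:117031240, the most in one place. A 3-base CCG deletion at chr10:117031234 was among them, with 9 of 27 reads in parental, 6 of 22 for Y positive and 4 of 26 for Y negative. All 7 stood at a minority of reads in each library that listed them.

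A 7-base GCCTTGG deletion at chr10:57695592-57695598, upstream of ENSMUST00000099727, had 26 of 29 reads in parental, 38 of 42 for Y positive and 45 of 46 for Y negative. Its mapping quality was 29.1, 33.0 and 30.3, the lowest among the 5 longest indels in all 3 lists at a depth of at least 20.

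Indels held by 1 list alone at a depth of at least 20 were counted after placing every allele leftmost, so that an allele listed at different starts is not taken for a private one. They numbered 51 of 184 at that depth (27.7%, interval 21.4 to 34.8), beside 31.0% of all autosomal indels (29.8 to 32.2), a share near the background. The parental list held 19 of them, the Y positive list 15 and the Y negative list 17. Their median allele fraction was 0.3, 0.312 and 0.279, and single-base A or T changes made up 7, 8 and 12. Entries deposited as homozygous numbered 3, 0 and 0. For 16 of the 51, another list held a different indel within 5 bases, with its depth. For the other 35, no entry that close gave a depth in the other libraries. No test was made of whether any of the 51 was gained or lost.

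The 3 homozygous parental entries lay together upstream of ENSMUST00000098432. A 6-base TGAAAG insertion at chr8:109452365 was carried by 29 of 29 reads, a 4-base TCGA insertion at chr8:109452369 by 26 of 26, and a 51-base insertion at chr8:109452371 by 20 of 20. Together they add 61 bases within 7 bases of reference sequence. Neither derived line listed any indel within 150 bases of them. The parental list also held a 16-base deletion at chr4:60965037-60965052 in the 5′ UTR of ENSMUST00000098052, with 21 of 71 reads. With the base before it, its letters occur in 1 RefSeq promoter window, that of Mup14 on chromosome 4. This match of letters does not place the deletion. The Mup genes encode major urinary proteins and are near-identical copies of one another. Whether reads were split among such copies was not tested. A T deletion inside that stretch, at chr4:60965051, was listed in Y negative alone with 23 of 64 reads.

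In Y positive, a GCG insertion at chr2:174893221 and an ACA deletion at chr2:174893225-174893227 lay in the 5′ UTR of ENSMUST00000072895, 18 and 22 bases from the start codon. They were carried by 32 of 270 and 31 of 271 reads and cancel in length. Their allele fractions were among the lowest of the indels held by 1 list. Y positive alone also listed a T deletion at chr4:60434875 (ENSMUST00000107506) with 41 of 84 reads. An A deletion at chr6:52114736, in the 5′ UTR of ENSMUST00000014848, 93 bases from the start codon, was listed there with 14 of 30 reads. In the AG repeat on chromosome 3, deletions of 19, 1 and 27 bases were listed in Y positive alone, with 11 of 28, 11 of 28 and 11 of 29 reads. At chr4:54248778 (ENSMUST00000117623) Y positive listed a GT insertion with 22 of 53 reads, where Y negative listed a GT deletion with 10 of 52.

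In Y negative, 12 of the 17 indels held alone were single-base A or T changes, a share that was not tested. Such changes made up 51.9% of the 187 indels read at least 20 times in some library, and 46.9% of all autosomal indels at that depth. A T insertion at chr10:93619627, in the 5′ UTR of ENSMUST00000099343 and 43 bases from the start codon, was carried by 19 of 68 reads. A deletion at chr17:37808842 (ENSMUST00000122036) was carried by 18 of 58 reads and one at chr4:134959613 (ENSMUST00000120372) by 15 of 41. None of the 17 was homozygous, and the highest allele fraction among them was 0.450.

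In the 5′ UTR of ENSMUST00000038169, parental and Y positive listed different indels at one place. Parental held a C insertion at chr10:75322952 with 20 of 145 reads and a 17-base insertion at chr10:75322954 with 20 of 146, at 39 and 41 bases from the start codon. Y positive held a 32-base insertion between them, at chr10:75322953, with 16 of 117 reads.

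All 3 lists held 12 indels at a depth of at least 100 in each. Of these, 5 had a mean allele fraction under 0.3, 5 lay between 0.421 and 0.504, and 2, at chr3:78721060 and chr8:12573062-12573065, stood at 1 with a mapping quality of 60. The 5 low ones had mapping qualities from 31.5 to 53.6, and 4 of them lay on chromosome 7. Those of the 5 in between overlapped this range, from 34.7 at chr3:93854156 to 59.99 at chr7:112124514. An A deletion at chr7:66931592 (ENSMUST00000101891) had 127 of 526, 100 of 495 and 124 of 610 reads. A T deletion at chr7:66931617, upstream of the same transcript, had 93 of 403, 104 of 399 and 94 of 469 reads. An A deletion at chr7:67009400 (ENSMUST00000102011) had 98 of 440, 110 of 450 and 115 of 482. The alleles at these places made up about the same part of the reads in each library, and reads with reference letters were the majority.

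Mapping quality, which tells how surely reads belong to one place, was given beside each entry. It had a median of 47.9 over the 12 deepest indels and 60 over the 19 homozygous ones. Heterozygous indels with a mean allele fraction under 0.3 numbered 13, with a median mapping quality of 58.5 and a median depth of 75. The other 37 heterozygous indels had a median mapping quality of 59.9 and a median depth of 52. The part of mapping quality in these allele fractions was not tested.

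**Figure D5:**
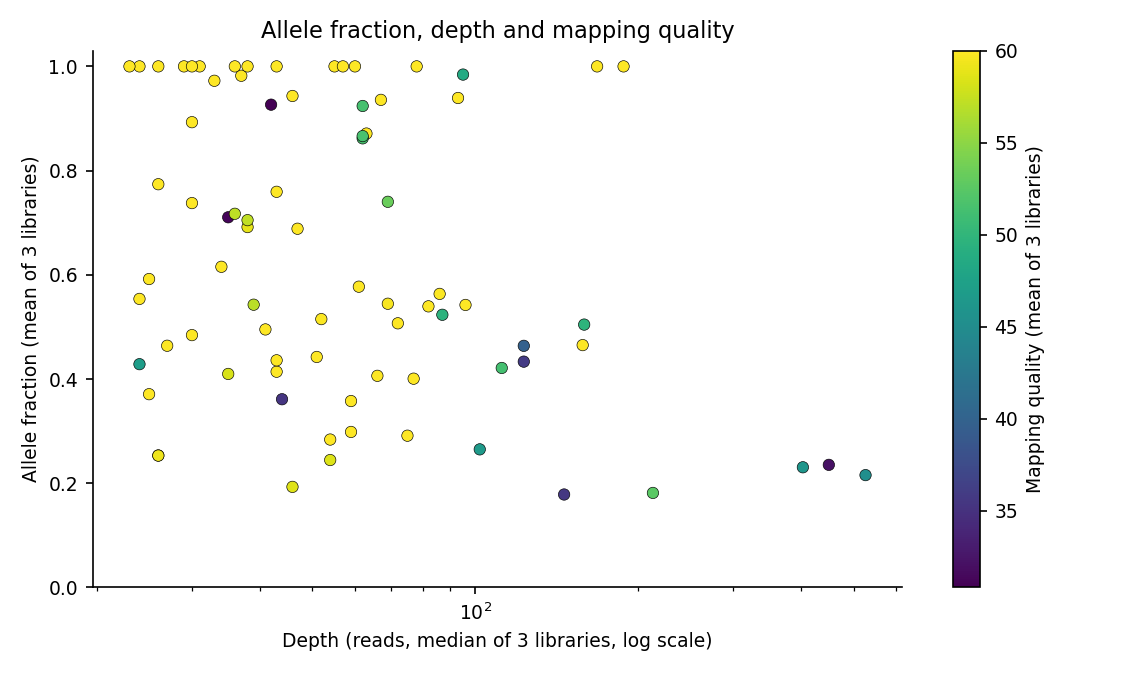
Mean allele fraction over the 3 libraries (vertical axis) against median depth (reads, log scale) for the 79 indels in all 3 lists at a depth of at least 20, coloured by mean mapping quality. The 19 homozygous indels lie at the top with a median mapping quality of 60, and of the 12 indels read at least 100 times in each library, 5 lie under a fraction of 0.3.

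The indels were unevenly spread over the genome. Over all autosomes they were 584 of 22791. On chromosome 2, the 5 Mb from 85 to 90 Mb held 41 of the 584, 20.8% of the 197 indels listed there, and 19 of the 41 were in all 3 lists. On chromosome 4, the 5 Mb from 60 to 65 Mb held 22, 32.4% of its 68 indels. On chromosome 7, the 5 Mb from 65 to 70 Mb held 9 of 25 (36.0%), the deep indels above among them. On chromosome 17, the 5 Mb from 95 to 100 Mb held 7 of 18 (38.9%). Of the chromosomes, 2 held the most, with 79, or 4.09% of its indels. The share was highest on chromosome 17, with 35 (4.35%), and lowest on chromosome 18, with 14 (1.24%).

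Over the 146 indels in all 3 lists, 59 were homozygous in each library (40.4%), and 19 of the 79 at a depth of at least 20 (24.1%). On chromosome 2 between 80 and 95 Mb, 18 of 24 indels in all 3 lists were homozygous, and 6 of 10 at that depth. On chromosome 3 between 85 and 95 Mb the counts were 5 of 9, and 1 of 3 at that depth. On chromosome 11 between 40 and 55 Mb they were 3 of 4, with 0 indels at that depth. These stretches were taken up because earlier results of these data showed homozygous indels there, so their counts are a description only.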

How the data were processed

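Genomic DNA was captured for exons and sequenced as paired Illumina reads, per the labels' protocols. The submitters' processing notes name BWA, Picard, mm9 and mm10. The deposited lists reach 197068017 on chromosome 1, beyond the last GRCm38 gene end at 195291439, so their coordinates are not mm10 and were taken as mm9. No label names the variant caller or annotation tool, so both are not given here. The deposited values are counts of reads (depth and reads per allele), a phred-scaled quality score that the authors' caller gave and that was used for no filter, and genotype and mapping quality as text. Of 21975 transcript identifiers, 0 matched the RefSeq gene table, so indels are named by position and first transcript.

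Entries were matched on chromosome, start, reference and alternative allele (Python 3.11.15, pandas 2.3.3, SciPy 1.17.1). Intervals are exact 95% binomial intervals. Allele fraction used summed allele reads, a depth of at least 20 and a threshold of 0.05, and the test was checked on simulated data. Indels could be named when they passed the test or were among the 5 largest differences of a pair. So could those held by 1 list at depth 20 and an allele fraction of 0.25, of which only a part is named. The rule also took the 5 longest, the 5 nearest a start codon and those homozygous with 3 or more bases at depth 20. Indels that shared a transcript or held 2 alternative alleles could be named too. The rule for the upstream indels nearest a transcript start could not be applied, since no distance is given. Others named, among them those in the depth and neighbour paragraphs, were chosen after their values were seen. Members, lists and stretches were chosen with earlier results of these data known. Indels of 1 list were counted after placing alleles leftmost, a choice made after seeing the data. Alternatives covered depth limits, matching, placement, annotation class and single-base A or T indels. Inserted or deleted runs over 30 bases and letters on chromosome 18 are not printed.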

Additional observations from a re-analysis of the deposited data

Results flagged for a closer look

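The A insertion at chr13:40383412, upstream of ENSMUST00000054635, was taken out for a closer look because its allele fraction differed between lines by a test of the difference itself. It was carried by 67 of 83 reads in the Y negative library and by all 64 reads in Y positive, a difference of -0.193 (Y negative minus Y positive, Fisher exact test, adjusted p = 0.0111). All 67 parental reads carried it too. Each line has 1 library, so the difference is between those libraries.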

How the results depend on the processing

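The share of indels in all 3 lists, 25% as reported, moved to 55.6% at a depth of at least 20 in some library, to 49.4% at a depth of at least 10, to 30.5% when any listed indel within 5 bases counted as a match, and to 31.1% in 5′ UTRs alone. It stayed between 21.9% and 25.7% with upstream indels only, without entries of 2 alternative alleles, without single-base A or T indels, and with alleles placed leftmost, the last chosen after seeing the data. The homozygous share moved to 26.8% (parental), 23.3% (Y positive library) and 21.1% (Y negative library) at a depth of at least 20. Without single-base A or T indels the allele fraction test passed 0 of 44 members between Y negative and Y positive and 0 of 44 between Y negative and parental. The A insertion at chr13:40383412 is itself such an indel. Over all indels tested, the number that passed fell too, from 21 to 3 and from 8 to 3 in these pairs. The test passed 1, 0 and 1 members as reported at depths of 10 and 30 and with the deposited depth. The order is Y negative and Y positive, Y positive and parental, Y negative and parental. At a depth of 10, 121, 124 and 117 members were tested, and 23, 24 and 7 of all indels passed. At a depth of 30, 59, 62 and 58 members were tested, and 20, 22 and 6 of all indels passed. The shares of entries passed no threshold at any depth limit tried. No paired analysis was possible because each group holds 1 library, and for the same reason no replicate could be left out. Sharing and genotype moved with depth, and between 24.7% and 33.7% of the entries had under 5 reads. The part of depth in either was not tested. Matched exactly as listed, indels held by 1 list at a depth of at least 20 numbered 21, 17 and 17 (parental, Y positive, Y negative), against 19, 15 and 17 with alleles placed leftmost.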
